A study of Laodelphax striatellus with 6 samples.

Results

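Autophagy and apoptosis genes were followed in the small brown planthopper, Laodelphax striatellus, a sap-sucking insect pest of rice. Genes were taken by their protein description, through words such as autophagy, ATG, beclin, sequestosome, caspase, apoptosis, programmed cell death and death-associated. Of 59004 assembled genes in the table, 25802 carried a description and 21 were selected in this way, 11 of them for autophagy and 10 for apoptosis. A description is that of the best protein hit, which was not a planthopper protein for 11 of the 21. Whether those 11 are transcripts of this insect or of another organism was not tested. The 2 groups were wild-type insects treated with β-asarone, a phenylpropanoid found in plants, and wild-type untreated control insects, each with 3 libraries of poly(A) RNA from whole bodies. The study was concerned with detoxification under this compound. Dose, exposure time, stage, sex and the number of insects behind a library were not given in the sources used here. No source states whether replicate libraries were made from separate insects, and p-values therefore reflect library-to-library spread that may be technical only.

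Autophagy encloses cytoplasm in a double membrane and delivers it to the lysosome for breakdown. A kinase complex starts the process, a lipid kinase complex marks the membrane, and conjugation enzymes attach the ubiquitin-like protein ATG8 to it. In insects autophagy is engaged by starvation, and in those with larvae it clears larval tissue at metamorphosis. Apoptosis is the dismantling of a cell by caspases, proteases that are held back by inhibitor proteins and released by adaptor and mitochondrial factors.

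Values are TPM, the length-corrected share of a gene in its library, scaled by the authors to the same total in every library. The test was limma on log2(TPM + 1) for the 24816 genes whose mean reached 1 TPM, and the threshold was a Benjamini-Hochberg adjusted p of 0.05. The reads behind a value are unknown, since TPM does not carry sequencing depth. Control replicate 2 stood apart from the other libraries, with a median of 2.23 TPM over the tested genes, against 2.85 to 3.38 TPM in the other 5. β-asarone replicate 2 stood apart in another way, since 560 assembled genes were found in it only (2 TPM or more there, and no more than 5% of that level elsewhere), against 100 to 228 in any other library. Transcripts of several tissues were present in both groups. No description matched the fat body and yolk markers sought (vitellogenin, apolipophorin or hexamerin), so that tissue could not be checked. Muscle transcripts summed to 1749 to 2640 TPM in treated and 1873 to 2598 TPM in control libraries, and cuticle proteins to 6853 to 18469 TPM in treated and 11568 to 17913 TPM in control libraries.

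None of the 21 genes passed the threshold, also when no minimum level was set and all 21 entered the limma fit (smallest adjusted p = 0.983). Of the 10 that reached a mean of 1 TPM, 4 had a higher and 6 a lower mean log2 level in treated insects, where 62.8% of all tested genes were higher and 37.2% lower, and limma's adjusted p lay between 0.98 and 0.993. Over all tested genes 0.00403% were called, which was 1 gene and none of those described here. An unadjusted limma p under 0.05 was reached by 0 of the 10, while 3.47% of all tested genes reached it. The smallest unadjusted limma p among the 10 was 0.102, for ATG8. All 10 limma 95% intervals held 0, and the interval of 1 gene reached a log2 change of 1 in either direction, that of programmed cell death protein 6. These are changes of log2(TPM + 1), a scale that understates changes of low genes. An interval short of 1 thus does not by itself exclude a doubling or halving of TPM. Changes in whole-body RNA cannot tell fewer cells of a kind from less RNA in each cell.

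The genes were of low to middle abundance. The 10 tested genes had mean levels of 1.28 to 18.4 TPM, and the 11 others of 0.425 to 0.823 TPM. Programmed cell death protein 4, the most abundant, stood above 90.7% of all genes with a description, ATG13 above 86.5% and ATG8 above 78.7%. At the lower end stood ATG37-like, above 20.1%. A value above 0 was listed in all 6 libraries for 19 of the 21, the exceptions being sequestosome-1-like and 1 of the caspase transcripts.

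**Figure D1:**
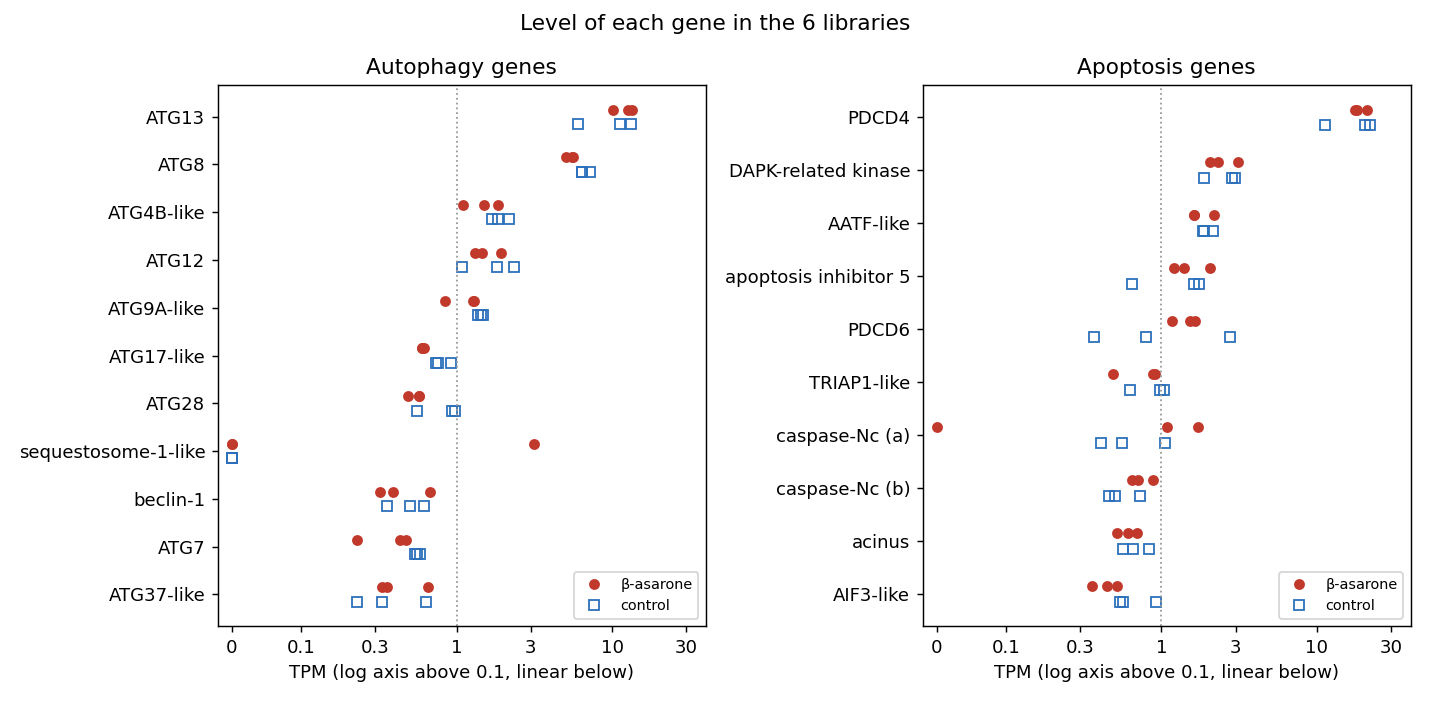
TPM of each autophagy gene (left) and apoptosis gene (right) in the single libraries, filled circles for β-asarone and open squares for control insects, on an axis that is logarithmic above 0.1 TPM and linear below. The dotted line at 1 TPM marks the minimum mean of a tested gene. The β-asarone and control values of ATG8 do not overlap, and sequestosome-1-like was above 0 in 1 library.

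The complex that starts autophagy was represented by ATG13 and an ATG17-like gene. ATG13, the regulatory subunit that binds the starting kinase (TRINITY_DN521_c0_g1), was at 13.45, 10.18 and 12.75 TPM in β-asarone replicates 1, 2 and 3, against 13.21, 6.03 and 11.33 TPM in control replicates 1, 2 and 3. The groups overlapped, and the lowest value was that of control replicate 2. The log2 change was 0.28 with an SE of 0.29 (limma adjusted p = 0.98), and it was -0.02 without control replicate 2. ATG17 is the scaffold of this complex in yeast. The ATG17-like transcript (TRINITY_DN40278_c0_g1) was at 0.60, 0.60 and 0.62 TPM in treated insects, against 0.74, 0.76 and 0.92 TPM in control insects, below the minimum for testing. Every treated library lay below every control library, at a ratio of means of 0.752, a pattern that 8.14% of genes at such levels showed (a mean under 1 TPM and a value above 0 in all 6 libraries).

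Beclin-1, the regulatory subunit of the lipid kinase complex (TRINITY_DN31611_c0_g1), was at 0.68, 0.39 and 0.32 TPM in treated and 0.50, 0.62 and 0.36 TPM in control insects. All control values lay within the range of the treated ones. ATG9 is the membrane-spanning protein whose vesicles seed the growing membrane. The ATG9A-like transcript (TRINITY_DN5402_c0_g2) was at 0.84, 1.3 and 1.27 TPM in treated insects, against 1.37, 1.48 and 1.43 TPM in control insects. The groups did not overlap, but the gap between 1.3 TPM and 1.37 TPM was small beside the spread of the treated libraries (log2 change -0.19, SE 0.18, limma adjusted p = 0.98), and without β-asarone replicate 1 the log2 change was -0.09.

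All 4 conjugation genes had lower means under treatment, but 0 of them passed the threshold. For 3 of them (ATG4B-like, ATG12 and ATG7) the best protein hit was in an animal other than a planthopper. Of all described genes without a planthopper best hit, a group not limited to animals, many had a lower mean log2 level in treated insects. The share was 71.2% of those tested and 77.6% of those under 1 TPM with a value above 0 in all 6 libraries. The count for these 3 genes is thus near the background. ATG8 had a planthopper best hit, and of all tested genes with such a hit 29.7% were lower. ATG8, the ubiquitin-like protein that is attached to the membrane (TRINITY_DN8718_c0_g1), was at 5.06, 5.49 and 5.61 TPM in β-asarone libraries, against 6.38, 6.38 and 7.25 TPM in control libraries. Its means were 5.39 ± 0.289 TPM in treated and 6.67 ± 0.502 TPM in control insects (SD, n = 3 each), and each treated value was below each control value. The log2 change was -0.26 with an SE of 0.14, a fold of 0.833 in TPM + 1 with a 95% interval of 0.662 to 1.05 (limma adjusted p = 0.98). The ratio of mean TPM was 0.808. The groups did not overlap for 2 of the 10 tested genes, ATG8 and ATG9A-like, both lower, beside 4.14% lower without overlap among all tested genes (2.23% with a planthopper best hit and 17.3% with another). The log2 change of ATG8 lay between -0.37 and -0.21 under the 16 alternatives. Since its groups did not overlap, leaving out a library or changing the pseudocount could not turn its sign.

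ATG4 is the protease that processes ATG8 before attachment and releases it afterwards. The ATG4B-like transcript (TRINITY_DN5104_c0_g1) was at 1.10, 1.84 and 1.51 TPM in treated and 1.69, 1.84 and 2.17 TPM in control insects, with a log2 change of -0.23 and an SE of 0.19, which was -0.12 without β-asarone replicate 1. ATG12, another ubiquitin-like modifier (TRINITY_DN18680_c0_g2), was at 1.32, 1.92 and 1.45 TPM in treated and 1.09, 2.33 and 1.81 TPM in control insects. Control replicates 1 and 2 held the lowest and the highest value of ATG12, so both treated and control means lay well inside the control range, and its log2 change of -0.08 became 0.07 without control replicate 2. ATG7, the enzyme that activates both modifiers (TRINITY_DN11371_c0_g1), was at 0.23, 0.43 and 0.47 TPM in treated insects, against 0.56, 0.54 and 0.58 TPM in control insects. Its groups did not overlap, at a ratio of means of 0.673, and its level was too low for testing. Summed over the 4 genes, conjugation transcripts stood at 7.71, 9.68 and 9.04 TPM in treated and 9.72, 11.09 and 11.81 TPM in control libraries. The treated library with the highest sum lay just under the control library with the lowest, and most of the sum was ATG8.

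The receptor sequestosome-1, which links ubiquitin-tagged cargo to ATG8, was represented by 1 transcript (TRINITY_DN27167_c0_g1) with the horseshoe crab Limulus polyphemus as best hit. Its level was 3.16 TPM in β-asarone replicate 2, and it was listed at 0 in β-asarone replicates 1 and 3 and in every control library. It is thus among the 560 assembled genes found in that library only, of which 268 had a best hit outside planthoppers and 45 in a planthopper. ATG28 and ATG37 are known from yeasts, where they serve the breakdown of peroxisomes. The ATG28 transcript (TRINITY_DN336_c1_g1), best matched by an ant protein, stood at 0.49, 0.57 and 0.57 TPM in treated and 0.56, 0.98 and 0.94 TPM in control insects. The ATG37-like transcript (TRINITY_DN48812_c0_g1) was at 0.33, 0.66 and 0.36 TPM in treated and 0.23, 0.33 and 0.64 TPM in control insects. The groups of both overlapped.

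Over the whole class, autophagy transcripts summed to 24.10, 26.54 and 24.93 TPM in β-asarone replicates 1, 2 and 3, against 26.33, 21.29 and 27.43 TPM in control replicates 1, 2 and 3. The control libraries lay on both sides of the treated ones, and ATG13 and ATG8 made up 68.5% of the sum. The sum in β-asarone replicate 2 held 3.16 TPM of sequestosome-1-like, which was listed at 0 in every other library. The log2 ratio of the mean sum in treated to that in control libraries was 0.01 with this transcript and -0.05 without it. The 5 tested autophagy genes had a median log2 change of -0.19, with 1 higher and 4 lower, beside a median of 0.08 over all tested genes. The split of 1 and 4 was the same under median-of-ratios scaling and quantile normalization. The median was -0.09 without β-asarone replicate 1 and 0.01 both over the genes with a planthopper best hit and over those with a mean of at least 5 TPM, and 3 of the 4 lower genes had another best hit, as described for the conjugation genes.

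Among the apoptosis genes, the caspases were represented by 2 partial transcripts of caspase-Nc, the name of the Drosophila initiator caspase Dronc, both with a Laodelphax striatellus protein as best hit. The first (TRINITY_DN14537_c0_g2) was at 1.71, 1.09 and 0.00 TPM in treated and 1.06, 0.41 and 0.56 TPM in control insects. The second (TRINITY_DN19131_c0_g1) was at 0.65, 0.89 and 0.71 TPM in treated and 0.46, 0.50 and 0.73 TPM in control insects. Whether they are pieces of 1 gene is not known here, and reads may have been divided between them. Their sum was 2.36, 1.98 and 0.71 TPM in treated and 1.52, 0.91 and 1.29 TPM in control insects, with the lowest and the highest value both in treated insects.

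Among inhibitors, apoptosis inhibitor 5, a nuclear protein that protects mammalian cells from death (TRINITY_DN12642_c0_g1), was at 2.06, 1.39 and 1.21 TPM in treated and 1.74, 0.65 and 1.62 TPM in control insects. Control replicate 2 was again the lowest library, and the log2 change of 0.15 (SE 0.27) became -0.08 without it. A homologue of TRIAP1, which in human cells is induced by p53 and acts in mitochondria (TRINITY_DN17397_c0_g1), was at 0.49, 0.91 and 0.89 TPM in treated and 0.63, 0.98 and 1.04 TPM in control insects. Its groups overlapped. A homologue of apoptosis-inducing factor 3, a mitochondrial flavoprotein (TRINITY_DN10854_c0_g2), was at 0.45, 0.52 and 0.36 TPM in treated and 0.93, 0.57 and 0.54 TPM in control insects. Its groups did not overlap, but the values of 0.52 TPM and 0.54 TPM nearly met, and the ratio of means was 0.652.

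Programmed cell death protein 4, which in mammals restrains translation initiation by binding the helicase eIF4A (TRINITY_DN1992_c0_g1), was at 20.87, 18.21 and 17.64 TPM in treated and 21.82, 11.31 and 20.40 TPM in control insects. The treated libraries lay between control replicate 2 and control replicate 1. The log2 change was 0.13 with an SE of 0.26 (limma adjusted p = 0.98), and it was -0.15 without control replicate 2. Programmed cell death protein 6, a calcium-binding protein (TRINITY_DN19591_c0_g1), was at 1.65, 1.17 and 1.52 TPM in treated and 2.76, 0.80 and 0.37 TPM in control insects. The control libraries spanned a far wider range than the treated ones, and the log2 change was 0.21 with an SE of 0.39, or -0.09 without control replicate 3.

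A kinase of the death-associated family (TRINITY_DN7525_c0_g1) was at 3.13, 2.05 and 2.33 TPM in treated and 2.98, 1.87 and 2.85 TPM in control insects. This was the tested gene with the smallest difference, a log2 change of -0.02 with a 95% interval of -0.53 to 0.49. Apoptosis-antagonizing transcription factor, a nucleolar protein (TRINITY_DN39339_c0_g1), was at 1.63, 2.18 and 1.63 TPM in treated and 1.88, 2.14 and 1.84 TPM in control insects. Acinus, a nuclear protein linked to chromatin condensation and splicing (TRINITY_DN37788_c0_g1), was at 0.61, 0.52 and 0.70 TPM in treated and 0.57, 0.83 and 0.66 TPM in control insects. The groups of all 3 overlapped.

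Apoptosis transcripts summed to 33.25, 28.93 and 26.99 TPM in β-asarone replicates 1, 2 and 3, against 34.83, 20.06 and 30.61 TPM in control replicates 1, 2 and 3. The treated libraries lay within the control range, and programmed cell death protein 4 made up 63.1% of the sum. The 5 tested apoptosis genes had a median log2 change of 0.13, with 3 higher and 2 lower, and this median became -0.08 without control replicate 2.

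The descriptions of the 21 genes came from different animals. With every library kept, the direction of a gene went with the animal that gave its best hit. This grouping was made after the values were seen. A planthopper protein was the best hit of 10 genes, each from Nilaparvata lugens or Laodelphax striatellus. In the whole table the genus Sogatella was counted as planthopper too. Another arthropod, among them a shrimp, a barnacle, an ant and an aphid, was the best hit of 6, and an animal outside the arthropods, such as an abalone, a sea urchin or a sea squirt, that of 5. Of the 10 genes with a planthopper best hit, 7 had a higher and 3 a lower mean log2 level in treated insects. Of the 11 others, 10 had a lower one, and the exception was sequestosome-1-like.

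**Figure D2:**
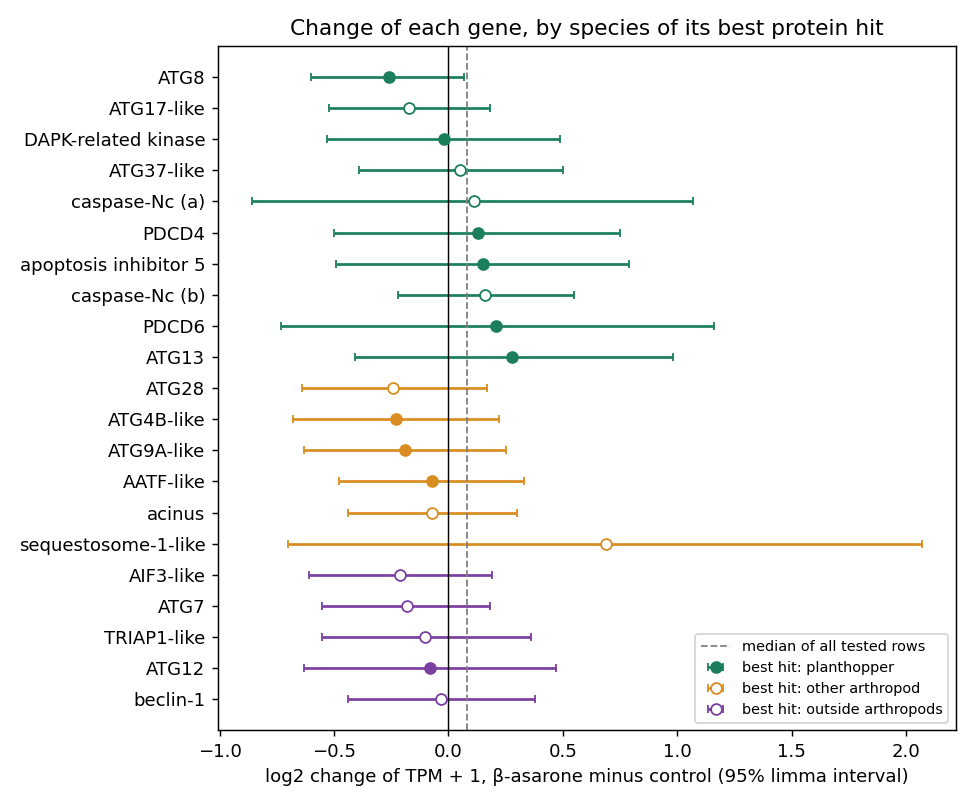
Log2 change of TPM + 1 (β-asarone minus control) of each of the 21 genes with its 95% limma interval, in colours by the animal of the best protein hit. Filled points are the 10 tested genes, open points the 11 genes under a mean of 1 TPM, taken from the fit without a filter, and the dashed line is the median of all tested genes, 0.08. All intervals hold 0, and 10 of the 11 genes with a best hit outside planthoppers lie left of 0.

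The same division ran through the whole table. Of the 2120 tested genes with a best hit outside planthoppers, 71.2% had a log2 change below 0 and the median was -0.13. Of the 12248 with a planthopper best hit, 29.7% had one below 0 and the median was 0.10. The division was much smaller without control replicate 2. The share and the median were then 56.4% and -0.02 with a planthopper best hit and 71.8% and -0.10 with another. Among genes with a mean under 1 TPM and a value above 0 in every library, the shares with a lower mean log2 level were 77.6% with another best hit and 44.2% with a planthopper best hit. The 10 of 11 and 3 of 10 lower genes described here are to be read against these shares, and no difference from them was tested. The division also ran through the genes whose treated values all lay below the control values. Such genes made up 17.3% of the tested genes with another best hit and 2.23% of those with a planthopper best hit, and 4.14% of all tested genes. Among the 10 tested genes described here they were ATG9A-like, of the first kind, and ATG8, of the second.

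Among the 15455 genes with a mean under 1 TPM and a value above 0 in all 6 libraries, the share with all treated values below all control values was 16.7% with another best hit and 3.5% with a planthopper best hit. Of the 9 such genes described here, 3 were of this kind. They were ATG7 and the homologue of apoptosis-inducing factor 3, with an abalone as best hit, and ATG17-like, with a planthopper as best hit. No gene of the 21 had all treated values above all control values, a pattern seen in 4.53% of all tested genes and in 3.03% of those under 1 TPM with a value above 0 in all 6 libraries.

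**Figure D3:**
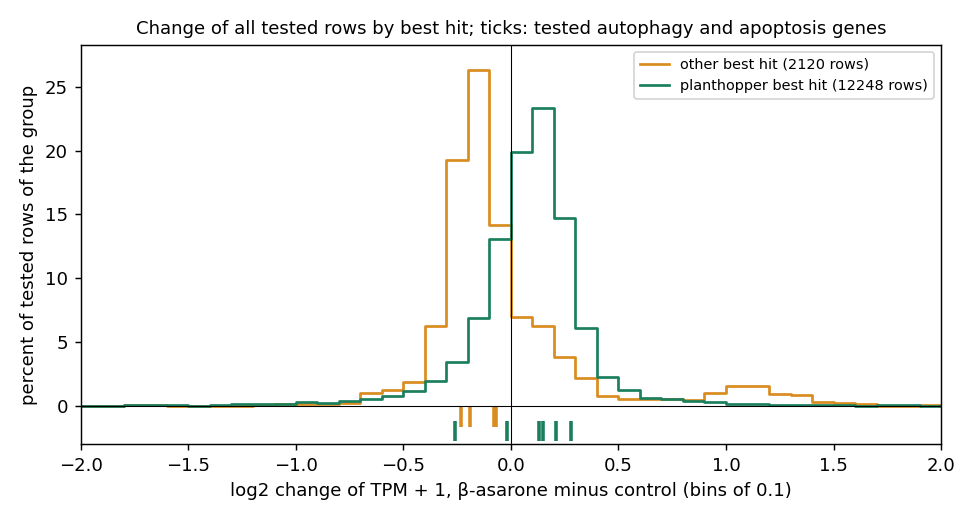
Distribution of the log2 change of TPM + 1 (β-asarone minus control) over the tested genes with another best hit (2120) and with a planthopper best hit (12248), as a percentage of each group in bins of 0.1, drawn from -2 to 2. Ticks under the axis mark the 10 tested autophagy and apoptosis genes in the colour of their group. The 4 ticks with another best hit all lie below 0, and 4 of the 6 with a planthopper best hit lie above it.

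The 2 kinds of gene also differed in which libraries were low. Control replicate 2 was below both other control libraries for 5 of the 10 genes with a planthopper best hit, among them ATG13, programmed cell death protein 4 and apoptosis inhibitor 5. It was so for 1 of the 11 others, ATG7. The shares over all tested genes were 67.6% with a planthopper best hit and 24.2% with another, and over the genes under 1 TPM with a value above 0 in all 6 libraries they were 65.5% and 30%. Over the 10 genes with a planthopper best hit the median ratio of control replicate 2 to the mean of the other 2 control libraries was 0.589, and over those of the 11 others with control values above 0 it was 1.16. β-asarone replicate 1 was below both other treated libraries for 3 of the 10 genes with a planthopper best hit and 6 of the 11 others, beside 21.6% and 51.1% of all tested genes of these kinds and 16% and 41.1% of those under 1 TPM. ATG8 and ATG17-like, although their best hits were planthopper proteins, were not low in control replicate 2, where they stood at 0.936 and 0.916 of the mean of the other 2 control libraries. This library was also not below both other controls for programmed cell death protein 6, ATG37-like and the second caspase transcript, with ratios of 0.511, 0.759 and 0.84.

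**Figure D4:**
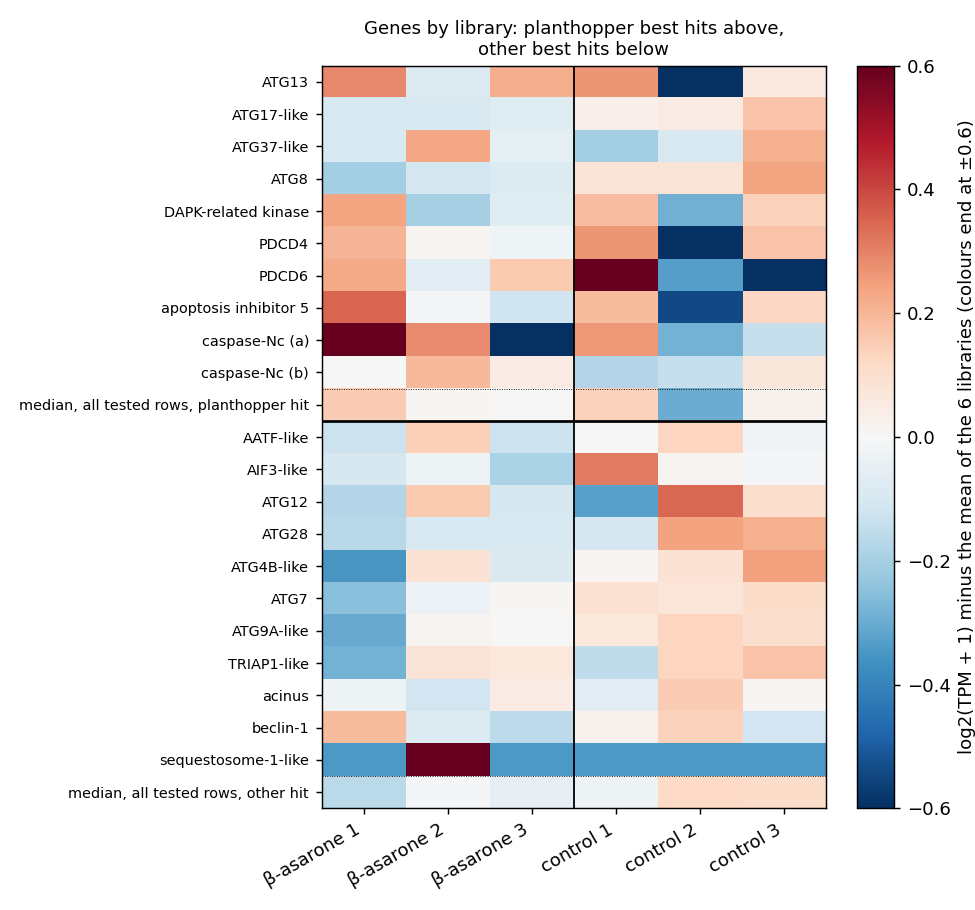
Deviation of log2(TPM + 1) from the mean of the 6 libraries for each gene (rows) and library (columns, β-asarone left of control), with genes of planthopper best hit above the thick line and the others below it. The last row of each block is the median over all tested genes of that kind. The upper block is mostly blue in control 2, with a median of -0.30, and the lower block is mostly blue in β-asarone 1, with a median of -0.16.

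Leaving out control replicate 2 turned the balance of the genes with a planthopper best hit. Of the 6 tested genes with a planthopper best hit, 5 were then lower in treated insects and 1 higher, and 56.4% of all tested genes with a planthopper best hit were lower. Of the 4 tested genes with another best hit, 3 were still lower, as were 71.8% of all such genes. Without β-asarone replicate 1 all 4 were lower, as were 68.3% of all such genes. What sets the levels of genes with another best hit was not tested, nor was whether they are transcripts of the planthopper itself.

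Other genes of both processes carry descriptions without the words used for selection. A lower mean in treated insects was seen for 5 of 7 such autophagy and lysosome transcripts with another best hit and 2 of 5 with a planthopper best hit, and for 5 of 6 and 2 of 6 such cell death transcripts. Of the 12 autophagy and lysosome transcripts 3 could be tested, and 0 passed the threshold, with 1 higher and 2 lower. Cathepsin B, a lysosomal and digestive protease (TRINITY_DN1364_c0_g2), was at 77.26, 83.36 and 83.77 TPM in treated and 80.91, 85.59 and 77.54 TPM in control insects, a log2 change of 0.00 with an SE of 0.12, which was -0.06 under median-of-ratios scaling. Phosphoinositide 3-kinase regulatory subunit 4, of the autophagy lipid kinase complex (TRINITY_DN10228_c0_g1) was at 1.75, 1.42 and 1.98 TPM in treated and 2.58, 1.27 and 1.84 TPM in control insects. Both pairs of groups overlapped. A homologue of tectonin beta-propeller repeat-containing protein 1, which acts at the fusion with lysosomes and has a starfish as best hit (TRINITY_DN9027_c0_g1), was at 0.80, 0.91 and 1.01 TPM in treated and 0.94, 1.46 and 1.17 TPM in control insects.

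Of the 12 cell death transcripts 8 were tested, with 4 higher, 4 lower and 0 past the threshold. Cytochrome c, the respiratory carrier that mammalian mitochondria release to activate caspases, had a planthopper transcript (TRINITY_DN777_c0_g1) at 223.74, 206.69 and 194.11 TPM in treated and 214.22, 190.84 and 231.09 TPM in control insects. Another cytochrome c transcript, with the aphid Aphis gossypii as best hit (TRINITY_DN37030_c0_g3), was at 15.17, 19.06 and 16.96 TPM in treated insects, against 20.60, 23.72 and 24.71 TPM in control insects. The treated values of the first lay within its control range, while every treated value of the second was below every control value, as for 17.3% of all tested genes with a best hit outside planthoppers. The log2 changes were -0.02 (SE 0.13) for the planthopper transcript and -0.41 (SE 0.15) for the aphid-hit transcript, neither past the threshold (limma adjusted p = 0.987 and 0.98).

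The aphid-hit cytochrome c transcript was the one among these 8 with an unadjusted limma p under 0.05, at 0.029, where 3.47% of all tested genes had one. The log2 change of this transcript lay between -0.49 and -0.34 under the 15 alternatives that could be fitted. Since its groups did not overlap, leaving out a library or changing the pseudocount could not turn its sign. A channel of the outer mitochondrial membrane with a coral as best hit (TRINITY_DN8241_c0_g1) was at 4.11, 4.73 and 4.07 TPM in treated and 4.20, 5.95 and 5.15 TPM in control insects (log2 change -0.19, SE 0.17, or -0.09 without control replicate 2). Its treated values lay at the lower end of the control range or below it. The pair of such channels with a Laodelphax striatellus best hit, added after their values were seen, was far more abundant. The first (TRINITY_DN29361_c0_g1) was at 244.94, 187.21 and 196.48 TPM in treated and 258.19, 173.12 and 189.69 TPM in control insects, a log2 change of 0.03 (SE 0.20) that was -0.03 under median-of-ratios scaling. The second (TRINITY_DN5854_c0_g1) was at 139.22, 150.30 and 140.33 TPM in treated and 139.71, 126.04 and 151.57 TPM in control insects, a log2 change of 0.05 (SE 0.13) that was -0.01 under that scaling. The groups of both overlapped.

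The DNA damage response was represented by 2 p53 transcripts and by poly(ADP-ribose) polymerase, all with planthopper best hits. The first p53 transcript (TRINITY_DN11075_c0_g1) was at 3.37, 4.40 and 3.62 TPM in treated and 2.37, 3.08 and 4.75 TPM in control insects. The other (TRINITY_DN8003_c0_g1), added after its values were seen, was at 1.79, 1.28 and 1.47 TPM in treated and 1.42, 1.95 and 1.5 TPM in control insects. Their groups overlapped, with log2 changes of 0.15 (SE 0.24) for the first and -0.06 (SE 0.18) for the other, and that of the first was -0.02 without control replicate 1. The polymerase (TRINITY_DN4739_c0_g1) was at 3.28, 3.32 and 3.10 TPM in treated and 3.61, 2.29 and 2.87 TPM in control insects. Its groups overlapped, with a log2 change of 0.12 (SE 0.18) that was 0.00 without control replicate 2 and 0.25 without control replicate 1.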

How the data were processed

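The deposited table gives TPM per assembled gene and library, made by the authors and written to 2 decimals. It is named for FPKM, but all 6 libraries have the same total within rounding, a property of TPM. Per the labels' protocols, libraries were strand-marked poly(A) RNA. Cutadapt 1.9, the aligner HISAT2 2.0.4, the assembler StringTie 1.3.4d, and also DESeq2 and edgeR, stand in the submitters' processing notes with no role stated. No genome build is named in the sources used here. The authors' group means were not used. No count test was possible with TPM. A gene can be split over several assembled transcripts.

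Libraries were grouped by title. Of all 15 pairs, 0.389% to 2.6% of genes above 0 in both libraries had equal values, and none was treated as 1 library. Limma 3.58.1 in R 4.3.3 (trend and robust, two-sided) was fitted to log2(TPM + 1) over all genes whose mean reached 1 TPM. This scale understates changes of low genes. The members, lists and alternatives were chosen with earlier results of these data known. Named genes were, in each class of roles, the 3 most abundant tested ones, the 6 higher and 6 lower with the smallest p, and any found in 1 group only; all 21 are given here. Of the other lists, the 2 higher and 2 lower with the smallest p and the most abundant are named, with 3 more added after their values were seen. The procedure was tested on simulated data. No sequences were used.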

Additional observations from a re-analysis of the deposited data

How the results depend on the processing

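The number of all tested genes past the threshold was 1. It became 0 when the pseudocount was 0.1, when no minimum level or a minimum mean of 5 TPM was set, under median-of-ratios scaling and quantile normalization, with planthopper best hits only, with a replicate block and without any single library (0 to 0). The number of autophagy and apoptosis genes past the threshold was 0 under each alternative run. The median log2 change of the tested autophagy genes, -0.19, became -0.30 with a pseudocount of 0.1, and 0.01 with planthopper best hits only and with a minimum mean of 5 TPM, where 2 genes were left. Without single libraries it lay between -0.26 and -0.09. That of the apoptosis genes lay between -0.08 and 0.28. The log2 ratio of the summed levels was 0.01 for autophagy (-0.09 to 0.08 without single libraries) and 0.06 for apoptosis (-0.14 to 0.23).

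Single genes that changed direction on leaving out a library had log2 changes between -0.02 and 0.49 (ATG13), -0.26 and 0.07 (ATG12), -0.08 and 0.28 (apoptosis inhibitor 5), -0.15 and 0.29 (programmed cell death protein 4), -0.09 and 0.63 (programmed cell death protein 6), -0.17 and 0.07 (the death-associated kinase), -0.24 and 0.09 (phosphoinositide 3-kinase regulatory subunit 4), -0.02 and 0.37 (the first p53 transcript), -0.14 and 0.03 (the other), -0.09 and 0.20 and -0.02 and 0.11 (the first and second abundant mitochondrial channel), -0.03 and 0.04 (cathepsin B) and -0.10 and 0.04 (the planthopper cytochrome c). Cathepsin B was at -0.06 under median-of-ratios scaling and -0.02 under quantile normalization, where this cytochrome c was at 0.02, and the channels were at -0.03 and -0.01 under median-of-ratios scaling. Others lay between -0.25 and -0.09 (ATG9A-like), -0.33 and -0.12 (ATG4B-like), -0.17 and -0.03 (apoptosis-antagonizing transcription factor), -0.28 and -0.11 (the tectonin homologue), -0.30 and -0.09 (the channel with a coral best hit) and 0.00 and 0.25 (the polymerase). The cause was not tested. The median of all tested genes, 0.08, was 0.04 under median-of-ratios scaling, 0.01 under quantile normalization, 0.18 without control replicate 1 and -0.03 without control replicate 2.

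Replicate numbers were not taken to pair the libraries. Deviations from the group means correlated at 0.157, 0.0814 and -0.035 for numbers 1, 2 and 3, and β-asarone replicate 3 correlated best with control replicate 2 (0.0613). With the replicate block, 0 of 24816 genes passed, 1039 had an unadjusted p under 0.05 against 860 without it, and the smallest adjusted p of the autophagy and apoptosis genes was 0.912. Unknown depth limits the genes under 1 TPM most.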
